A study of Homo sapiens with 8 samples.

Results

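The genes described here encode the amino acid transporter families SLC1, SLC3, SLC6, SLC7, SLC36, SLC38 and SLC43 of the solute carrier series. They were taken as every gene to which the array's annotation assigns a probe set of its own, with exactly 1 symbol. The families held 138 such probe sets for 56 genes, of 19775 genes on the table, and where a gene had several, the brightest on average was taken to represent it. The choice of probe set used no treated-minus-vehicle difference, but the families were chosen with earlier results of these data known. HCT116, an established human colorectal carcinoma line, was exposed for 10 h to 20 nM largazole, 20 nM FK228, 2 µM SAHA or vehicle alone, and RNA was hybridised to Affymetrix U133 2.0 arrays. Each of the 4 groups held 2 arrays, 8 in all, and values are log2 levels of probe sets. Largazole is a cyclic depsipeptide thioester, FK228 (romidepsin) a bicyclic depsipeptide with a disulfide, and SAHA (vorinostat) a hydroxamic acid. All 3 inhibit histone deacetylases, the enzymes that take acetyl groups off histones. SAHA was given at another dose than the depsipeptides, so its values stand beside theirs with no test between them. The groups model 1 cell line at 1 time and 1 dose of each compound, and the labels do not say whether the 2 arrays of a group came from separate cultures, so p-values measure the spread between these arrays, which may be technical.

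Amino acids cross membranes through carriers that couple their movement to sodium, protons or the exit of another amino acid. SLC1 members carry glutamate or small neutral amino acids, and SLC38 members bring in glutamine and other neutral amino acids with sodium. Some SLC36 members, such as SLC36A1, move small amino acids with protons. Most SLC7 carriers are light chains that reach the membrane only when joined to a heavy chain, SLC3A2 or SLC3A1. Proliferating tumour cells rely on them for glutamine, leucine, arginine and cystine, and cystine brought in by SLC7A11 supplies cysteine for glutathione. Many SLC6 members carry neurotransmitters, taurine or creatine instead of dietary amino acids.

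A gene was counted as expressed when at least 2 arrays read 4.49 or more, the median of the table. Of the 56 genes, 39 were expressed and 17 were not. Those below it were SLC1A6, SLC3A1, SLC6A4, SLC6A5, SLC6A9, SLC6A12, SLC6A14, SLC6A15, SLC6A16, SLC6A20, SLC7A3, SLC7A4, SLC7A7, SLC7A13, SLC7A14, SLC38A4 and SLC38A11. Just under the threshold lay SLC1A6 (4.48) and SLC7A4 (4.44), and just above it SLC7A10 (4.65) and SLC6A18 (4.87). By family, the expressed genes were 6 of 7 in SLC1, 1 of 2 in SLC3, 10 of 18 in SLC6, 8 of 13 in SLC7, 2 of 2 in SLC36, 9 of 11 in SLC38 and 3 of 3 in SLC43.

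Epithelial markers were present, as the label of a colorectal line implies, and array medians lay between 4.47 and 4.51. The epithelial markers EPCAM (vehicle mean 12.58), KRT8 (11.97), KRT18 (12.83) and KRT19 (12.13) were high, and the intestinal markers CDX1, CDX2 and VIL1 were at 5.25, 5.85 and 4.49. Of 7 leukocyte markers measured, 2 were expressed, ITGAM (vehicle mean 5.10) and CD79A (5.57), while PTPRC was at 2.47. Levels of a list were summed on the linear scale and given as log2, so its brightest markers weigh most. For the leukocyte list this log2 sum was 7.08 to 7.16 with largazole and 7.14 on both FK228 arrays. It ran from 7.06 to 7.18 with SAHA and 7.07 to 7.12 with vehicle. Of 8 fibroblast and endothelium markers, 4 were expressed, and COL1A1 rose with every compound. The log2 sum of that list was 8.74 to 8.96 with largazole, 8.34 to 8.47 with FK228, 8.38 to 8.58 with SAHA and 8.06 to 8.08 with vehicle. With vehicle PECAM1 stood at 5.21, VWF at 4.90, DCN at 4.62 and LUM at 2.74. Of 8 neuron and glia markers, 6 were expressed, the brightest with vehicle being MBP (8.29) and GAD1 (6.55). The neuron and glia list had a log2 sum of 8.56 to 8.67 with largazole and 8.52 to 8.53 with FK228. Its sum was 8.51 to 8.52 with SAHA and 9.06 to 9.10 with vehicle. The part of these shifts in the results below was not tested.

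All probe sets past the filter were fitted together with limma, and a gene was called at a Benjamini-Hochberg adjusted p under 0.05. Largazole changed 17 of the 39 expressed transporter genes, 6 higher and 11 lower, where 45.2% of all 13373 genes tested were called (21.9% higher, 23.2% lower). FK228 changed 19, 6 higher and 13 lower, beside 52.8% of all genes (25.7% higher, 27% lower). SAHA changed 21, 5 higher and 16 lower, beside 47.4% of all genes (22.1% higher, 25.2% lower). These shares of called genes (43.6%, 48.7% and 53.8% of the transporters) lie near the background, so nothing is read from how often the families changed. Among the calls, SLC6A13 and SLC7A9 passed the filter only through treated arrays and SLC7A10 only through vehicle arrays. The median log2 change of the 39 genes was -0.087 with largazole, -0.020 with FK228 and -0.16 with SAHA, against 0.0018, 0.013 and -0.019 over all genes. At least 2-fold changes were few, with 1 higher and 3 lower with largazole, 2 higher and 4 lower with FK228, and 0 higher and 3 lower with SAHA. Over all genes, 4.35% rose and 4.74% fell at least 2-fold with largazole, 6.18% and 7.68% with FK228, and 4.29% and 5.6% with SAHA. The 3 comparisons share their vehicle arrays, so each compound's values are given side by side and their likeness is not counted as a result. Array levels are relative, so less RNA per cell and fewer cells that hold the transcript cannot be told apart.

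**Figure D1:**
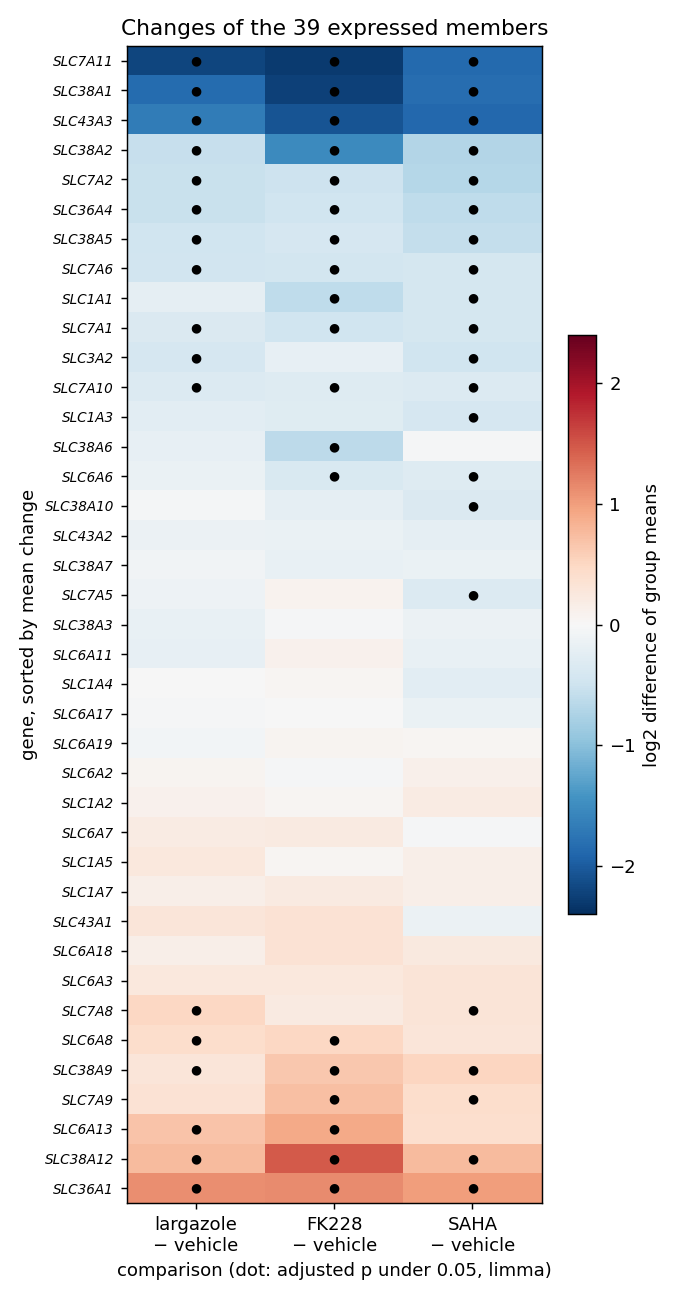
Log2 difference from vehicle (colour) of the 39 expressed genes (rows, sorted by the mean over the 3 compounds) with largazole, FK228 and SAHA (columns). A dot marks an adjusted p under 0.05. SLC7A11, SLC38A1 and SLC43A3 form the dark block of falls at the top, and SLC36A1 and SLC38A12 the rises at the bottom.

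Among the exchangers that pair with a heavy chain, SLC7A11, the light chain of the cystine-glutamate antiporter xCT, fell with every compound. Its probe set 209921_at read 6.61 and 6.66 with largazole, 6.35 and 6.72 with FK228, 6.93 and 7.02 with SAHA, and 8.90 and 8.79 with vehicle. All 6 treated arrays lay below both vehicle arrays, and the FK228 pair spread most. The log2 change was -2.21 ± 0.13 with largazole (SE, n = 2, adjusted p = 1.91e-05, limma), -2.31 ± 0.13 with FK228 (adjusted p = 7.5e-06) and -1.87 ± 0.13 with SAHA (adjusted p = 3.12e-05). In linear terms these falls are 4.63-fold, 4.94-fold and 3.65-fold. Another probe set, 217678_at, changed by -2.33, -2.40 and -1.96, and the third, 207528_s_at, which lay near the filter, by -1.11, -0.85 and -0.88, in the order largazole, FK228, SAHA. Each of the 3 probe sets was called lower in each comparison.

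SLC3A2 encodes 4F2hc (CD98), the heavy chain that carries SLC7A11 and several other light chains to the plasma membrane. It read 8.88 and 8.98 with largazole, 9.19 and 9.11 with FK228, 8.84 and 8.89 with SAHA, and 9.34 and 9.35 with vehicle. Every treated array was under the vehicle arrays, by a small margin with FK228. SLC3A2 fell with largazole (-0.41 ± 0.083, SE, n = 2, adjusted p = 0.0054) and SAHA (-0.48, adjusted p = 0.00239), and its change with FK228 was -0.19 (adjusted p = 0.0869, 95% confidence interval -0.39 to -0.0030), called under a stricter filter (adjusted p = 0.0348). SLC3A1, the heavy chain of the renal cystine carrier, was not expressed.

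The other light chains moved less. SLC7A5, the LAT1 light chain that exchanges leucine and other large neutral amino acids for glutamine, had levels of 10.66 and 10.75 with largazole, 10.93 and 10.89 with FK228, 10.41 and 10.58 with SAHA, and 10.84 and 10.80 with vehicle. It fell with SAHA (-0.33, adjusted p = 0.02), a call that ended without SAHA replicate 1 (adjusted p = 0.106), vehicle replicate 1 (0.0888) or vehicle replicate 2 (0.0616). Its values of -0.12 with largazole (adjusted p = 0.356) and 0.090 with FK228 (adjusted p = 0.451) were not called, with confidence intervals of -0.33 to 0.094 and -0.12 to 0.30. SLC7A6, a light chain that exchanges cationic for neutral amino acids, fell, at -0.47 with largazole, -0.43 with FK228 and -0.43 with SAHA (adjusted p = 0.00278, 0.00303 and 0.00385). SLC7A8, the LAT2 light chain, rose by 0.49 with largazole (adjusted p = 0.00484) and 0.30 with SAHA (0.0367), and stood at 0.22 with FK228 (0.10). Without probe sets named _x_at or _s_at, which can bind related transcripts, SLC7A8 was at 0.28 with largazole (adjusted p = 0.17) and 0.043 with SAHA (0.848). The SAHA call of SLC7A8 also ended when any 1 array of the largazole or SAHA pair or vehicle replicate 1 (0.19, adjusted p = 0.203) was left out, and its value with FK228 was called without vehicle replicate 2 (0.33, adjusted p = 0.039). SLC7A9, the light chain partner of SLC3A1, read 4.56 and 4.77 with largazole, 5.03 and 5.06 with FK228, 4.69 and 4.82 with SAHA, and 4.16 and 4.48 with vehicle. Both vehicle arrays lay under the filter, so SLC7A9 was tested only through its treated arrays and a difference in that direction was favoured. Its values were 0.72 with FK228 (adjusted p = 0.00231) and 0.43 with SAHA (0.0279), and support no statement on the family. Its value with largazole was 0.34 (adjusted p = 0.0678), called without vehicle replicate 2 (0.50, adjusted p = 0.0279). The SAHA call of SLC7A9 ended without SAHA replicate 1, SAHA replicate 2 or vehicle replicate 1 (adjusted p = 0.0528, 0.126 and 0.16), and its value was 0.27 without the last. SLC7A10, a light chain for small neutral amino acids, passed the filter only through its vehicle arrays (4.65 and 4.67), and its 6 treated arrays, from 4.25 to 4.43, were all under it. Its value was -0.32 with each compound (adjusted p = 0.0331 with largazole, 0.0306 with FK228 and 0.0323 with SAHA), calls that ended with no filter or with an intensity trend. They also ended without largazole replicate 2 (adjusted p = 0.198), FK228 replicate 2 (0.158), SAHA replicate 1 (0.0668) or SAHA replicate 2 (0.127), each for its own compound.

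The 2 expressed cationic amino acid carriers fell with every compound. SLC7A1 (CAT1), which imports arginine and lysine, read 10.33 and 10.42 with largazole, 10.27 and 10.24 with FK228, 10.30 and 10.31 with SAHA, and 10.72 and 10.73 with vehicle. Its changes were -0.35, -0.47 and -0.42 (adjusted p = 0.00864, 0.0016 and 0.00324 with largazole, FK228 and SAHA). That result rests on 1 of 4 tested probe sets, 212295_s_at. Without _x_at and _s_at probe sets SLC7A1 was at -0.21 with largazole (adjusted p = 0.15), -0.20 with FK228 (0.139) and 0.060 with SAHA (0.682), and the call with largazole was lost without its replicate 1 (0.068). The mean of all its probe sets gave -0.16, -0.11 and -0.11, none called. SLC7A2 (CAT2) fell, at -0.54 with largazole, -0.50 with FK228 and -0.68 with SAHA (adjusted p = 0.00263, 0.0028 and 0.000786).

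The sodium-coupled SLC38 carriers gave both some of the deepest falls and 1 of the clearest differences between compounds. SLC38A1 (SNAT1), a glutamine importer, read 8.96 and 8.90 with largazole, 8.57 and 8.50 with FK228, 8.97 and 8.94 with SAHA, and 10.90 and 10.67 with vehicle (probe set 224579_at). Every treated array lay far below both vehicle arrays, lowest with FK228. The change was -1.85 ± 0.098 with largazole (SE, n = 2, adjusted p = 1.38e-05), -2.25 with FK228 (adjusted p = 3.1e-06) and -1.84 with SAHA (adjusted p = 1.35e-05). All 3 tested probe sets of SLC38A1 fell, and averaging them with its 1 probe set under the filter gave -1.35 with FK228 and -1.22 with SAHA.

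SLC38A2 (SNAT2), the neutral amino acid importer known to be induced when cells are starved of amino acids, read 12.30 and 12.21 with largazole, 11.39 and 11.18 with FK228, 12.15 and 12.05 with SAHA, and 12.89 and 12.74 with vehicle (probe set 222982_x_at). The FK228 arrays lay below the other treated arrays, and those below vehicle. SLC38A2 fell, at -0.56 ± 0.10 with largazole (SE, n = 2, adjusted p = 0.00395), -1.53 with FK228 (adjusted p = 1.82e-05) and -0.71 with SAHA (adjusted p = 0.00108). The other 2 probe sets of SLC38A2 showed deeper falls, of -0.96 and -0.94 with largazole, -1.92 and -1.92 with FK228, and -0.92 and -0.94 with SAHA.

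The remaining expressed SLC38 genes changed by less, with 1 exception. SLC38A12 (listed by RefSeq with the synonym TMEM104) read 7.53 and 7.73 with largazole, 8.30 and 8.37 with FK228, 7.52 and 7.71 with SAHA, and 6.76 and 6.96 with vehicle. These values rest on its only probe set, 220097_s_at. Every treated array exceeded both vehicle arrays, and the FK228 arrays were highest. Its rise was 0.77 ± 0.12 with largazole (SE, n = 2, adjusted p = 0.00133), 1.47 with FK228 (adjusted p = 3.35e-05) and 0.75 with SAHA (adjusted p = 0.00128). SLC38A9, the lysosomal arginine sensor and carrier upstream of mTORC1, read 8.11 and 7.91 with largazole, 8.34 and 8.36 with FK228, 8.29 and 8.14 with SAHA, and 7.69 and 7.73 with vehicle. It rose by 0.64 with FK228 (adjusted p = 0.00106) and 0.51 with SAHA (0.00401), and by 0.31 with each in the mean of its 2 probe sets, 1 of which failed the filter. Its rise of 0.30 with largazole (adjusted p = 0.0432) was not called without largazole replicate 1 (0.20, adjusted p = 0.249), either FK228 replicate (0.058), or either vehicle replicate (0.146 and 0.115), and was 0.11 in the mean of its probe sets (adjusted p = 0.32). SLC38A5, a glutamine and glycine carrier that also exchanges protons, fell, at -0.47 with largazole (adjusted p = 0.0118), -0.40 with FK228 (0.0193) and -0.57 with SAHA (0.00468). Leaving out largazole replicate 2 or vehicle replicate 2 ended the call with largazole, and the FK228 call ended without FK228 replicate 1 (-0.26, adjusted p = 0.109) or vehicle replicate 2. SLC38A6 fell with FK228 (-0.62, adjusted p = 0.0189), but its vehicle arrays were 5.80 and 5.22, and the value was -0.34 without vehicle replicate 1 (adjusted p = 0.0731) and -0.54 without FK228 replicate 2 (adjusted p = 0.0866). With largazole SLC38A6 was at -0.19, and at -0.48 without vehicle replicate 2 (adjusted p = 0.0272). SLC38A10 fell with SAHA (-0.35, adjusted p = 0.0116) and was at 0.048 in the mean of all its probe sets (adjusted p = 0.634). That call also ended without SAHA replicate 1 or vehicle replicate 2. SLC38A3 was not called in any comparison. SLC38A7, a lysosomal glutamine carrier, was not called on the probe set that stands for it (-0.087, -0.18 and -0.16 with largazole, FK228 and SAHA), but 1 of its 3 tested probe sets, 218727_at, was called lower with each compound (-0.33, -0.42 and -0.39), and the mean of its probe sets was called with SAHA (-0.21, adjusted p = 0.0471).

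**Figure D2:**
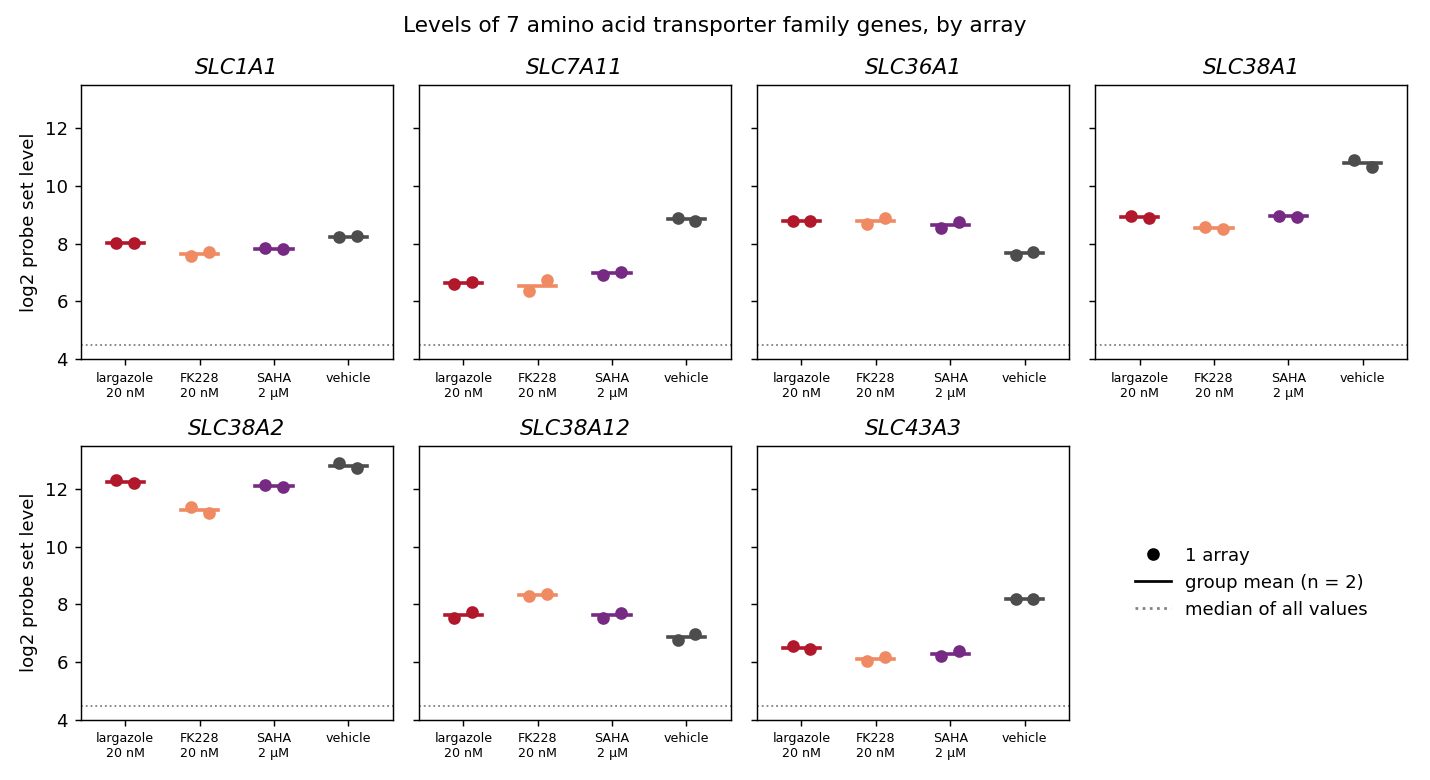
Log2 probe set levels (vertical axis, shared) on each array (points) and group means (lines, n = 2) for the 7 genes called with at least a 2-fold change against vehicle or called between largazole and FK228. The dotted line is the median of all values (4.49). SLC7A11, SLC38A1 and SLC43A3 sit lower on all treated arrays than with vehicle, while SLC38A2 and SLC38A12 set FK228 apart from largazole.

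The SLC36 carriers went opposite ways. SLC36A1 (PAT1), found on lysosomes as well as the cell surface, read 8.78 and 8.78 with largazole, 8.68 and 8.89 with FK228, 8.54 and 8.77 with SAHA, and 7.62 and 7.70 with vehicle (probe set 213119_at). All treated arrays were above the vehicle arrays, and the FK228 pair spanned the largazole pair. The rise was 1.12 ± 0.11 with largazole (SE, n = 2, adjusted p = 0.000175), 1.13 with FK228 (adjusted p = 9.92e-05) and 0.99 with SAHA (adjusted p = 0.000263). Its other probe set, whose level was 4.58, gave 0.32 with largazole, 0.23 with FK228 and 0.34 with SAHA, none called. Averaging it in gave 0.72 with largazole and 0.68 with FK228, both called. SLC36A4 (PAT4), a carrier of proline and tryptophan, fell, at -0.53 with largazole (adjusted p = 0.00249), -0.49 with FK228 (0.00285) and -0.60 with SAHA (0.00121). The other probe set of SLC36A4 gave -0.36, -0.34 and -0.44 in that order, called only with SAHA.

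In the SLC43 family the fall lay in SLC43A3, which carries purine nucleobases and not amino acids. Its probe set 213113_s_at read 6.55 and 6.44 with largazole, 6.02 and 6.17 with FK228, 6.20 and 6.38 with SAHA, and 8.18 and 8.18 with vehicle. The vehicle arrays were nearly equal and stood far above every treated array. The change was -1.68 ± 0.10 with largazole (SE, n = 2, adjusted p = 2.13e-05), -2.08 with FK228 (adjusted p = 4.5e-06) and -1.89 with SAHA (adjusted p = 1.33e-05). The other probe set of SLC43A3 changed by -1.20, -1.62 and -1.19. SLC43A1 (LAT3) and SLC43A2 (LAT4), the leucine and phenylalanine carriers of the family, were not called with any compound, and their values lay between -0.21 and 0.35. The 2 tested probe sets of SLC43A2 had opposite signs.

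**Figure D3:**
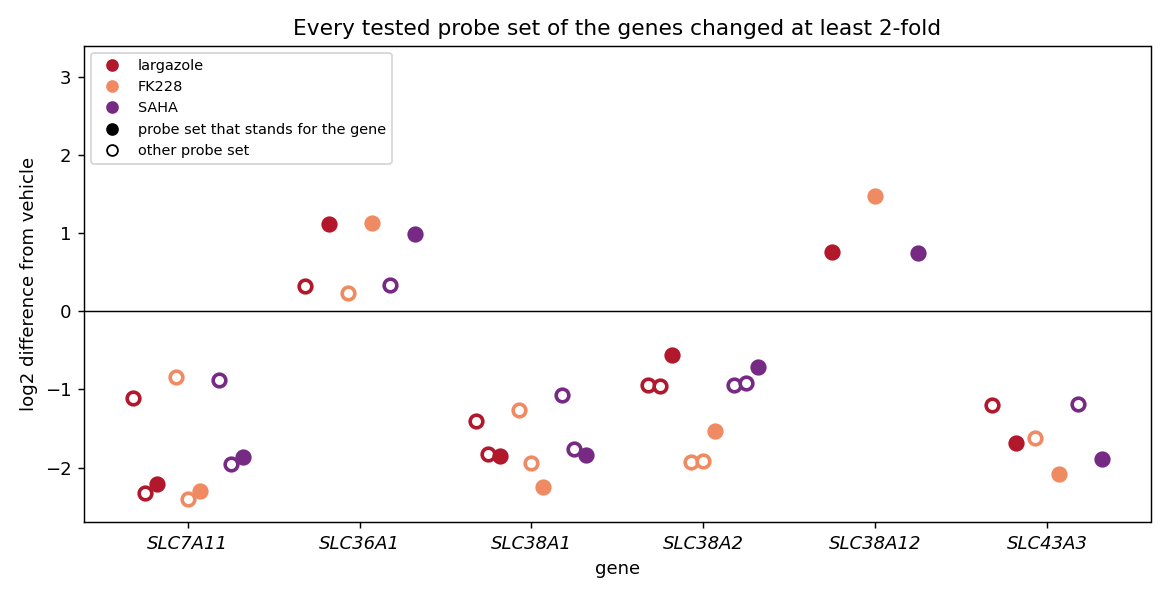
Log2 difference from vehicle (vertical axis) of every tested probe set of the 6 genes called with at least a 2-fold change against vehicle (horizontal axis), for largazole, FK228 and SAHA (colours). Filled points are the probe sets that stand for the genes and open points the others. SLC38A12 has only 1 probe set. In the other genes the tested probe sets share 1 direction, from 0.23 to 1.13 in SLC36A1 and from -2.40 to -0.85 in SLC7A11.

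Of the SLC1 carriers of glutamate and small neutral amino acids, SLC1A1 and SLC1A3 were called. SLC1A1 (EAAT3), a glutamate and cysteine importer, read 8.04 and 8.02 with largazole, 7.57 and 7.70 with FK228, 7.84 and 7.80 with SAHA, and 8.22 and 8.27 with vehicle. Its treated arrays all lay under vehicle, lowest with FK228. SLC1A1 fell, at -0.61 ± 0.083 with FK228 (SE, n = 2, adjusted p = 0.000562) and -0.42 with SAHA (adjusted p = 0.00446, -0.25 in the mean of its probe sets). Its value with largazole was -0.22 (adjusted p = 0.0712), called under a stricter filter (0.0256) or with array weights (0.0497). With largazole its other probe set was called lower (-0.40), as was the mean of its probe sets (-0.31, adjusted p = 0.0109). SLC1A5 (ASCT2), a main route of glutamine entry in many tumour lines, had levels of 8.03 and 7.99 with largazole, 7.66 and 7.96 with FK228, 7.77 and 8.01 with SAHA, and 7.62 and 7.90 with vehicle. Its values of 0.25 with largazole (adjusted p = 0.209), 0.052 with FK228 (0.791) and 0.13 with SAHA (0.498) were not called, with confidence intervals of -0.082 to 0.58, -0.28 to 0.38 and -0.20 to 0.46. SLC1A3 (EAAT1), a glutamate carrier, fell with SAHA (-0.40, adjusted p = 0.0185), a call lost without SAHA replicate 2 (0.0996) or vehicle replicate 2 (0.102). With largazole SLC1A3 was at -0.26 (adjusted p = 0.094), not called. With FK228 it was at -0.30 (adjusted p = 0.0502), called when only the 4 arrays of those groups were fitted (0.0459). SLC1A2, SLC1A4 and SLC1A7 were not called with any compound on the probe sets that stand for them. Of the 4 tested probe sets of SLC1A4, 1 was called higher with FK228 (0.35), and the 4 ran from -0.17 to 0.35. Without SAHA replicate 2 SLC1A4 was at -0.42 with SAHA (adjusted p = 0.0377), and without FK228 replicate 1 SLC1A7 was at 0.37 with FK228 (adjusted p = 0.0452).

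In SLC6, 10 of 18 genes were expressed and 3 were called. SLC6A8, the creatine carrier, read 9.15 and 9.38 with largazole, 9.34 and 9.35 with FK228, 9.08 and 9.18 with SAHA, and 8.78 and 8.92 with vehicle. It rose by 0.41 with largazole (adjusted p = 0.0153) and 0.50 with FK228 (0.0052), and stood at 0.28 with SAHA (0.0632), or 0.54 in the mean of its 3 probe sets (0.00133). Leaving out largazole replicate 2 (adjusted p = 0.107) or vehicle replicate 1 (0.0906) ended the call with largazole, while the mean of all 3 probe sets gave 0.63 (adjusted p = 0.00062). SLC6A8 has near-identical pseudogene copies, so its probe sets may hold signal of these. SLC6A6, the taurine carrier, fell, at -0.36 with FK228 (adjusted p = 0.00708) and -0.30 with SAHA (0.0176). In the mean of its 5 probe sets, 3 of them under the filter, SLC6A6 was at -0.22 with FK228 (adjusted p = 0.0543) and -0.070 with SAHA (0.53), and the SAHA call ended when either SAHA or either vehicle replicate was left out (adjusted p up to 0.0789). SLC6A13, a GABA and taurine carrier, read 5.08 and 4.89 with largazole, 5.26 and 5.15 with FK228, 4.41 and 5.02 with SAHA, and 4.40 and 4.21 with vehicle on the _x_at probe set that stands for it. Both vehicle arrays lay under the filter, which SLC6A13 passed through treated arrays alone. Its values of 0.68 with largazole (adjusted p = 0.0221) and 0.90 with FK228 (0.00484) are given as a description. Its other probe set gave 0.016 with largazole and 0.25 with FK228, neither called, and the largazole call ended when either largazole or either vehicle replicate was left out. With SAHA SLC6A13 was at 0.41 (adjusted p = 0.117), and at 0.72 without SAHA replicate 1 (adjusted p = 0.00739). The remaining expressed genes of the family, SLC6A2, SLC6A3, SLC6A7, SLC6A11, SLC6A17, SLC6A18 and SLC6A19, which carry neurotransmitters or neutral amino acids in nerve, kidney or gut, were not called in any comparison. Leaving out FK228 replicate 1 made SLC6A3 a call with FK228 (0.47, adjusted p = 0.0358), and leaving out FK228 replicate 2 did so for SLC6A18 (0.67, adjusted p = 0.0264).

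Largazole and FK228, both at 20 nM for 10 h, differed at 4 of the 39 genes, 3 higher and 1 lower with largazole, where 9.06% of all genes tested were called (4.88% higher, 4.19% lower). None of the 4 reached 2-fold, where 0.441% of all genes were higher and 0.0823% lower by at least that much. SLC38A2 was higher with largazole than with FK228 by 0.97 ± 0.10 (SE, n = 2 each, adjusted p = 0.00415, limma, 1.96-fold). Its other 2 probe sets gave 0.96 and 0.98, and the call stood with any 1 array left out. SLC38A12 was lower with largazole than with FK228, by -0.71 ± 0.12 (adjusted p = 0.0144). With 1 array of either pair left out its difference was -0.61 to -0.81 and its call ended (adjusted p = 0.0548 to 0.11). SLC1A1 (0.39, adjusted p = 0.0321) and SLC38A1 (0.40, adjusted p = 0.0497) were higher with largazole, and their calls ended when any 1 array of either pair was left out (adjusted p = 0.0667 to 0.174 for SLC1A1 and 0.115 to 0.236 for SLC38A1). The SLC1A1 call also ended without either vehicle replicate and the SLC38A1 call without either SAHA replicate. Averaged over a gene's probe sets the differences were 0.12 for SLC1A1 and 0.046 for SLC38A1, neither called. The tested probe sets ran from -0.15 to 0.39 for SLC1A1 and from -0.14 to 0.40 for SLC38A1, so they did not share 1 direction. SLC43A3 missed the threshold (0.40, adjusted p = 0.0529, interval 0.16 to 0.63), and passed it under a stricter filter (0.0171), with an intensity trend (0.0345) or with array weights (0.0426). SLC38A9, at -0.34 (adjusted p = 0.0774), passed it under a stricter filter (0.0272), with an intensity trend (0.0298) or at equal ribosomal protein medians (-0.39, adjusted p = 0.0452).

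Other members were not called between the 2 depsipeptides. SLC36A1 differed by -0.0077 (adjusted p = 0.975), with an interval of -0.26 to 0.25, and SLC7A11 by 0.096 (adjusted p = 0.688), with an interval of -0.20 to 0.39. Over the 35 genes not called, the intervals reached from -0.73 to 0.83, so differences up to that size at single genes were not resolved. The median absolute difference of the 39 genes was 0.12, and it was 0.15 over all genes tested.

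**Figure D4:**
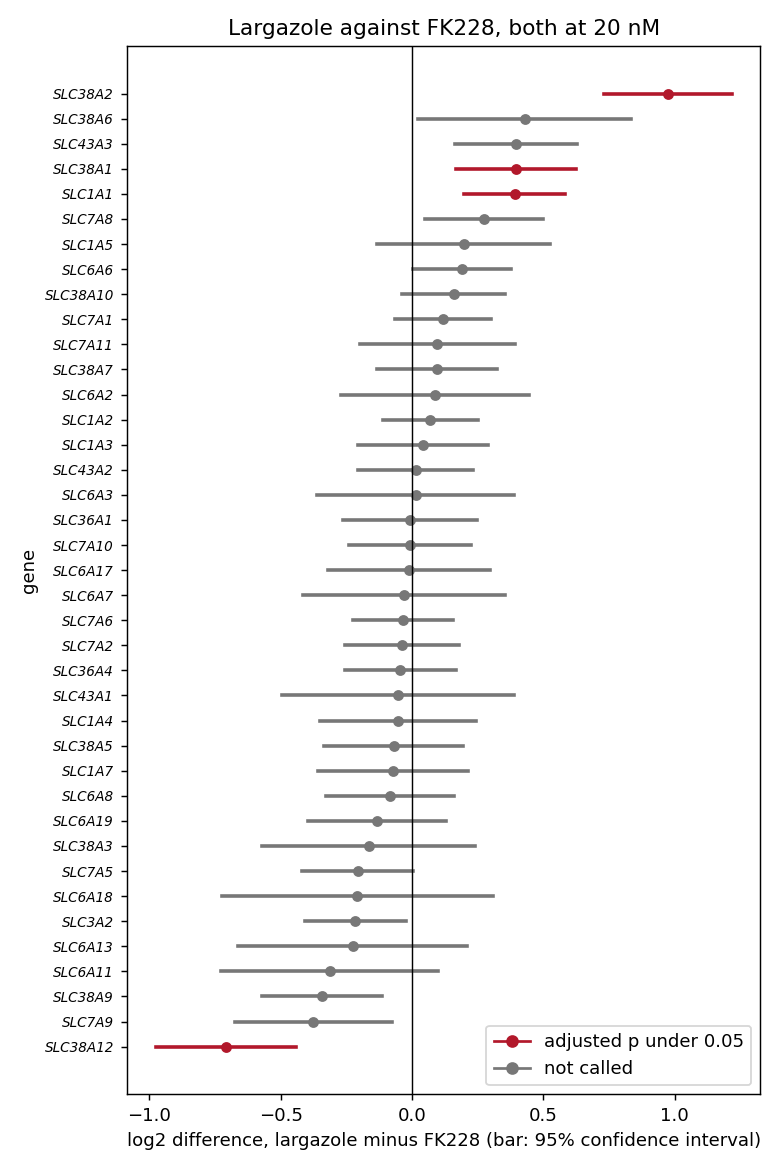
Log2 difference of largazole minus FK228, both at 20 nM (horizontal axis), for the 39 expressed genes (vertical axis), with 95% confidence intervals. Red marks adjusted p under 0.05. SLC38A2 at 0.97 and SLC38A12 at -0.71 lie farthest from 0.

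Promoter sequences were read for genes that changed together or set the compounds apart: SLC38A2 and SLC38A1, which fell, and SLC36A1 and SLC38A12, which rose. The RefSeq promoter table (GRCh38.p14) holds windows from 250 bases before to 50 after a gene's start for 42 of the 56 genes, 64 windows in all. SLC7A11 and SLC43A3, which also fell with every compound, are among the genes with no window. The 3 motifs below were searched on both strands: TGATGNAA, the core of the CEBP-ATF composite element through which ATF4 acts on amino acid starvation, GGGCGG, the GC box, and CACGTG, the E-box bound by MYC and TFEB. Capitals mark the matches, which do not overlap each other in these windows.
SLC38A2, chr12:46372724-46373023, minus strand: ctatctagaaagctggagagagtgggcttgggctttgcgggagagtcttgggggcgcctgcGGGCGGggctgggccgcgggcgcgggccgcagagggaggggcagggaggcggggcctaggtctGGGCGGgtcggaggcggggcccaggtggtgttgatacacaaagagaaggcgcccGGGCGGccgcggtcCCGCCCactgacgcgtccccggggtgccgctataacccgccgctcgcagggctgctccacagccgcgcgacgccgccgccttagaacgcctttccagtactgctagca
SLC38A1, chr12:46266467-46266766, minus strand: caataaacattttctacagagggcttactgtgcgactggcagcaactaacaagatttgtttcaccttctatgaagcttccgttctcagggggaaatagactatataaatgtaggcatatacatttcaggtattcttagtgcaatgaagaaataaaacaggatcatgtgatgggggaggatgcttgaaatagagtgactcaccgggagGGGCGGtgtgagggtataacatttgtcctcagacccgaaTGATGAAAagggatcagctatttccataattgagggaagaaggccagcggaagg
SLC36A1, chr5:151447353-151447652, plus strand: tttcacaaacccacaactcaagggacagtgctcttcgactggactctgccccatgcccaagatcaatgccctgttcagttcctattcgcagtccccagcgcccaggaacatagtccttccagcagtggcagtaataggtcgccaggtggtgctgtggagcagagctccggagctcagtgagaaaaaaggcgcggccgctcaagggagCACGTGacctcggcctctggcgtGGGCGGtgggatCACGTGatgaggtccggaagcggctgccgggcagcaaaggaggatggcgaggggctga
SLC38A12, chr17:74776249-74776548, plus strand: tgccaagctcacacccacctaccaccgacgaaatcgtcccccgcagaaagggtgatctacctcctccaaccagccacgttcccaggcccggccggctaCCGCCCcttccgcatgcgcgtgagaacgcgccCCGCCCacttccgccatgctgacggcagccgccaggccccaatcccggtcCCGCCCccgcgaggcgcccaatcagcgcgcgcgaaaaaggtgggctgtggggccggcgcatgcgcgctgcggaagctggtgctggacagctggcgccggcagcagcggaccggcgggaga

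The SLC38A2 window held 4 GC boxes and the SLC38A12 window 3, with no match to the other motifs. The SLC38A1 window shown held 1 TGATGNAA and 1 GC box, and the SLC36A1 window shown held 2 CACGTG and 1 GC box. A further window of SLC38A1 and one of SLC36A1 held none of the 3 motifs. Among all 35116 promoter windows of that length, 3.62% held TGATGNAA, 45.0% GGGCGG and 7.26% CACGTG. Among the 64 windows of the transporter genes, 6, 37 and 10 held them (9.38%, 57.8% and 15.6%). These letters describe the windows and were not set against binding. Sequence outside the windows, introns included, was not searched, so a gene with no match here may hold the motif elsewhere.

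Genes that use or sense the transported amino acids were read from lists of textbook pathway members, and changes are listed for largazole, FK228 and SAHA in that order, with limma's calls at an adjusted p under 0.05. The counts of each list stand beside 21.9% of all genes higher and 23.2% lower with largazole, 25.7% and 27% with FK228, and 22.1% and 25.2% with SAHA, and no list was tested against these shares. In the amino acid response list, 5 of 15 tested genes rose and 4 fell with largazole, 5 and 6 with FK228, and 4 and 6 with SAHA. Their median changes were 0.046, 0.095 and -0.024. ATF3, a stress-induced transcription factor, rose by 1.29 with largazole, 1.40 with FK228 and 1.13 with SAHA, and DDIT3 (CHOP) by 0.57, 1.31 and 0.73. TRIB3, a pseudokinase induced by ATF4 and CHOP, fell, at -1.16, -1.31 and -1.22, and JDP2, an AP-1 family repressor, at -1.96, -2.88 and -2.16. Members of the list therefore moved both ways. ATF4 itself was not called, at 0.046, 0.21 and 0.035 (adjusted p = 0.692, 0.0603 and 0.765). Without _x_at and _s_at probe sets 6 genes of this list were called with SAHA. With those probe sets left out 10412 genes were tested, and 43.5%, 51.1% and 45.7% were called with largazole, FK228 and SAHA. Counts under that setting, here and in the lists below, stand beside these shares and may cover fewer genes of a list.

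Of 13 tested regulators known to act on transporter genes, 4 rose and 5 fell with largazole, 3 and 6 with FK228, and 3 and 5 with SAHA, with medians of 0.023, -0.21 and 0.035. NFE2L2, which encodes NRF2, an activator of SLC7A11, fell, at -0.92 with largazole, -1.91 with FK228 and -1.07 with SAHA. KEAP1, the adaptor that marks NRF2 for degradation, fell, at -1.98, -2.48 and -2.20. MYC fell, at -0.31, -1.34 and -0.51. Its partner MAX rose by 0.57, 0.90 and 0.70. Between largazole and FK228, 4 of the 13 were called (9.06% of all genes), all higher with largazole, among them NFE2L2 (0.995, adjusted p = 0.00551), MYC (1.03, adjusted p = 0.00254) and KEAP1 (0.50, adjusted p = 0.0297), and 1 to 3 were called with any 1 array left out. EPAS1 (HIF-2 alpha) rose by 1.45 to 1.51. Without _x_at and _s_at probe sets, 5 genes of this list were called with FK228.

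Among cystine and glutathione genes, 3 of 11 tested rose and 1 fell with largazole, 4 and 3 with FK228, and 2 and 2 with SAHA, with medians of 0.13, 0.15 and 0.016. GCLC, the catalytic subunit of the first enzyme of glutathione synthesis, rose by 0.57, 0.62 and 0.71 with largazole, FK228 and SAHA. CTH, which makes cysteine from cystathionine, rose by 1.00, 0.79 and 0.98. Glutathione synthetase, GSS, fell, at -0.39, -0.42 and -0.46. With FK228 GCLM, the modifier subunit beside GCLC, fell, at -0.71.

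In glutamine and glutamate metabolism, 4 of 13 tested genes rose and 5 fell with largazole, 4 and 5 with FK228, and 4 and 6 with SAHA, with medians of -0.13, -0.14 and -0.18. The CTP synthases, which spend glutamine nitrogen on CTP, fell, CTPS1 at -1.12, -1.24 and -1.17 and CTPS2 at -1.03, -0.79 and -1.06. The aspartate aminotransferase GOT1 rose by 0.66, 0.78 and 0.65, and GFPT1, which starts hexosamine synthesis, by 0.44, 0.49 and 0.52. For serine, glycine and proline synthesis the counts were 3 higher and 1 lower of 10 with largazole, 2 and 2 with FK228, and 3 and 3 with SAHA, with medians of -0.013, -0.038 and 0.0040. GLDC, of the glycine cleavage system, rose by 1.37, 1.44 and 1.03. Single arrays moved the counts of that list, to 2 in all without either largazole replicate or vehicle replicate 1 (largazole), 2 without FK228 replicate 2 or vehicle replicate 1 (FK228), and 3 without any 1 SAHA or vehicle array (SAHA). In branched-chain amino acid breakdown, 5 of 14 rose and 1 fell with largazole, 5 and 2 with FK228, and 7 and 2 with SAHA (5 called without SAHA replicate 1 and 4 without vehicle replicate 2). The medians were 0.20, 0.14 and 0.24, and 3 genes were called with largazole without _x_at and _s_at probe sets. ACADSB, an acyl-CoA dehydrogenase of that route, rose by 1.05, 1.55 and 1.26, and IVD, which acts on the leucine branch, fell, at -0.94, -1.02 and -1.03.

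Of 33 tested genes of lysosomal amino acid sensing by mTORC1, the kinase complex that couples amino acid supply to growth, 12 rose and 5 fell with largazole, 13 and 6 with FK228, and 12 and 6 with SAHA, with medians of 0.16, 0.16 and 0.13. SESN3, a sestrin that restrains mTORC1, rose by 1.87 with largazole, 1.66 with FK228 and 1.78 with SAHA. CASTOR2, of the arginine sensor family, rose by 0.96 with largazole, and the Rag GTPase RRAGC by 1.38 with FK228. NPRL3, a subunit of the GATOR1 inhibitor, fell, at -0.75, -0.83 and -0.85, and MLST8, an mTOR subunit, at -0.66, -0.76 and -0.79. Without _x_at and _s_at probe sets 11 genes were called with largazole and 11 with FK228.

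Of 18 cytosolic aminoacyl-tRNA synthetase genes, which load amino acids onto tRNA, 3 rose and 6 fell with largazole, 6 and 5 with FK228, and 3 and 8 with SAHA. Their medians were -0.098, 0.0059 and -0.027. AARS1 fell, at -0.59, -0.65 and -0.71. WARS1 rose by 0.42, 0.55 and 0.43. Without _x_at and _s_at probe sets 5, 7 and 7 were called, and the count was 5 with largazole without largazole replicate 2 and 7 with FK228 without FK228 replicate 2 or vehicle replicate 1.

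Amino acid carriers outside the 7 families moved both ways too. Of 14 tested, 4 rose and 5 fell with largazole, 4 and 4 with FK228, and 4 and 5 with SAHA, with medians of -0.14, -0.12 and -0.042. SLC16A10, a carrier of aromatic amino acids, rose by 1.18, 1.38 and 1.15, and SLC15A2, a peptide importer, by 0.89, 0.97 and 0.88. The mitochondrial carriers SLC25A13 (aspartate and glutamate) and SLC25A15 (ornithine) fell, SLC25A13 at -0.90, -0.99 and -1.02 and SLC25A15 at -0.82, -0.98 and -0.99. The counts were 5 without vehicle replicate 2 (largazole), 5 without vehicle replicate 1 (FK228), and 5, 4 and 5 without SAHA replicate 1, vehicle replicate 1 and vehicle replicate 2 (SAHA). Among 9 tested partners and degradation factors of carriers, 2 rose and 4 fell with largazole, 3 and 4 with FK228, and 3 and 3 with SAHA, with medians of 0.063, -0.076 and 0.033. CD44, a surface glycoprotein known to stabilise xCT, fell, at -1.40, -1.58 and -1.32. SGK1, a kinase that keeps several carriers at the cell surface, rose by 2.31, 2.26 and 2.01, and NEDD4, a ubiquitin ligase, fell, at -0.66 with largazole and -1.09 with FK228.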

How the data were processed

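The authors deposited log2 probe set levels, 1 column per array. Per the submitters' processing notes, affy, RMA and limma were used, with no version, role or order given. Which of them gave the values, their scaling and their centring stay unknown. The table holds 54613 probe sets, of which 41091 carry exactly 1 gene symbol in the platform annotation, 1801 several and 11721 none. RefSeq gene IDs matched 41037 of those with 1 symbol. Probe sets whose second-highest value reached 4.49 were kept (28985), and all were fitted with limma 3.58.1 in R 4.3.3, with 1 mean per group and empirical Bayes moderation. Benjamini-Hochberg adjustment ran over all of them in each of 4 comparisons, with calls at 0.05. Precision is limited by the small number of arrays, with a median half-width of 0.24 for the 95% confidence intervals. No exact permutation test was run, since with 2 arrays per side its smallest p is 0.333. Members and lists were chosen with earlier results of these data known. Values by array are given for members changed at least 2-fold against vehicle or called between largazole and FK228, and for members with high vehicle levels or a central role, the last chosen after their values were seen. From each list up to 2 rises and 2 falls per comparison were named, with ATF4 and MYC added after their values were seen. Alternatives were no filter, a stricter filter (6.87), an intensity trend with a robust prior, a replicate block, array weights, equal ribosomal protein medians, further quantile normalization, no _x_at or _s_at probe sets, the mean of a gene's probe sets, 4 arrays only, and each array left out. In the last, a group reduced to 1 array took its spread from the remaining groups. The fit was tested on simulated data in which few of 28985 probe sets were changed, unlike here. It found 16 of 50 changed 1.5-fold, 68 of 100 changed 2-fold and 50 of 50 changed 4-fold. Of its 140 calls, 6 were false. Figures used Python 3.11.15 and matplotlib 3.10.9.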

Additional observations from a re-analysis of the deposited data

How the results depend on the processing

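Of 61 calls over the 4 comparisons, 37 held under every alternative that gave a value, among them all calls of SLC7A11, SLC38A2, SLC43A3, SLC36A1, SLC36A4, SLC7A2 and SLC7A6. Genes whose probe sets all end in _x_at or _s_at, such as SLC38A2, SLC43A3 and SLC38A12, have no value without such probe sets. Leaving those out gave 8 members changed with largazole, 11 with FK228, 11 with SAHA and 1 between largazole and FK228, of 29 tested. The shares over all genes were then 43.5%, 51.1%, 45.7% and 8.33%. The count between largazole and FK228 was 2 without a filter, 2 with the mean of all probe sets and 2 with only 4 arrays. These were of 56, 34 and 38 members tested, beside 2.84%, 12.1% and 5.41% of all genes. With 1 array left out the counts ran from 13 to 17 for largazole, 17 to 20 for FK228, 16 to 21 for SAHA and 1 to 3 between largazole and FK228, lowest at 1 without any 1 array of that pair. Over all genes, fewer were called in each comparison with any 1 array left out than in the main fit. The replicate block gave 18 members changed with largazole, 20 with FK228, 22 with SAHA and 6 between largazole and FK228. Over all genes it called 50.3%, 57.5%, 52.4% and 13.9%. With the block 7 cystine and glutathione genes each were called with largazole and SAHA. Between largazole and FK228 the block added SLC43A3 (0.40, adjusted p = 0.0461) and SLC7A9 (-0.38, adjusted p = 0.0460). The labels give no reason for the shared numbers, and the correlations of same-numbered arrays' deviations were 0.13 to 0.27. In all, 2 called values turned sign: SLC7A1 with SAHA was 0.060 without _x_at and _s_at probe sets, and SLC38A10 with SAHA was 0.048 in the mean of its probe sets. The cause was not tested. No scaling moved the median of all genes by over 0.1, but the share of higher genes among those called between largazole and FK228 was 53.8% here and 42.6% at equal ribosomal protein medians. Levels near 4.49 (SLC7A9, SLC7A10 and SLC6A13) limit how well those changes are measured.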
